A study of Mus musculus with 6 samples.

Results

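The 10 genes described here carry glucose through glycolysis in the embryonic mouse trachea: Slc2a1, Hk1, Hk2, Gpi1, Pfkl, Pfkp, Aldoa, Pgk1, Pkm and Ldha. They were chosen by symbol from the deposited gene count table. All 10 were among its 23478 genes, and all 10 were among the 19375 that passed the filter on low counts. Their levels were compared between muscle and epithelium, with 3 libraries of each.

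Both populations came from tracheas at embryonic day 13.5 of embryos that carried floxed Bmp4 alleles (Bmp4 f/f) and a gamma SMA eGFP reporter, which reads out the smooth muscle gamma actin. The labels name no Cre and call all 6 libraries controls, so the genotype was shared by both groups. Tissue was dissociated for 15 minutes, after which muscle cells were sorted by GFP and epithelial cells by an antibody to the surface protein Epcam. The reporter marks cells by a contractile gene, so the sort for muscle selected cells that had switched it on. The labels do not say whether embryos were pooled or whether replicates came from separate litters. P-values therefore measure the spread between these libraries, which may be technical.

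Glycolysis splits glucose into pyruvate in the cytosol and yields ATP without oxygen. Glucose enters through transporters, is trapped by hexokinases, and is committed to breakdown by phosphofructokinase. Pyruvate is then either reduced to lactate or taken into mitochondria. Most steps have several isozymes encoded by different genes, and tissues differ in which they use. The hypoxia-inducible factor HIF-1 binds short elements with the core ACGTG or GCGTG near many of these genes.

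With all 6 libraries compared, no gene of the set passed an adjusted p under 0.05, although 9 of 10 had their lower mean level in muscle. Among all tested genes 10.7% passed in that comparison (edgeR quasi-likelihood test, Benjamini-Hochberg adjustment). When the 2 dates read from the file headers were compared separately, 6 genes passed within the later date, all lower in muscle by 1.68-fold to 2.24-fold: Gpi1, Pfkl, Pfkp, Pgk1, Pkm and Ldha. In that comparison 6.93% of tested genes passed as higher in epithelium. Hk1, the exception, had the higher mean in muscle. Outside the set, the tissue-restricted isozymes separated the populations: the genes Slc2a4, Pfkm and Pgam2 were higher in muscle, and Hkdc1 and Aldoc in epithelium.

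The sequence before a listed start of 3 of the genes is shown, as the HIF-1 core letters fall unevenly over these windows. Slc2a1 was the gene whose groups did not overlap, Ldha the most abundant by length, and Pkm had a difference close to that of Slc2a1. Each run is the 250 bases before the more upstream listed RefSeq start on the plus strand of GRCm38.p6, at chr4:119108495-119108744 for Slc2a1, chr7:46845554-46845803 for Ldha and chr9:59656326-59656575 for Pkm. Capitals mark ACGTG or GCGTG on either strand.
Slc2a1: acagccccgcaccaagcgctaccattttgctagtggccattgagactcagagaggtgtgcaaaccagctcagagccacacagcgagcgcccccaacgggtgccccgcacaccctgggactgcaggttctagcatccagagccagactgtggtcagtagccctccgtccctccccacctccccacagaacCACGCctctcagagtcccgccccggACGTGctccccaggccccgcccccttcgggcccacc
Ldha: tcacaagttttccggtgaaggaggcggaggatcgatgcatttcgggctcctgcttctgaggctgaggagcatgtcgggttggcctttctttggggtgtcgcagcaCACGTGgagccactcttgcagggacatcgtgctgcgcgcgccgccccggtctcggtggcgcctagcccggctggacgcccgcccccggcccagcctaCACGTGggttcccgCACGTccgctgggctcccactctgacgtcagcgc
Pkm: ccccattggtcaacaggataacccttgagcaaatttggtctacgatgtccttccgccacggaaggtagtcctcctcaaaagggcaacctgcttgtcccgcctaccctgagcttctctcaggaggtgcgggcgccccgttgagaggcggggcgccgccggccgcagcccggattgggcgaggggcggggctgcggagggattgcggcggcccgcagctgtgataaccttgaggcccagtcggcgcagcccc
Ldha held 5 positions of these letters in that window, 4 of them in a pair of CACGTG palindromes that match on both strands. Before its other listed start, Ldha held 1 and no CACGTG. Slc2a1 held 2. Pkm held none in the window shown, and 1 in the window before its other listed start. The counts of Ldha and Pkm thus differed with the start taken. Of the 15 windows listed for the 10 genes, 11 held at least 1 match (73.3%) and 1 held CACGTG (6.67%). Across all 32851 windows of the same length, 38.6% held a match and 6.02% held CACGTG, so the share with CACGTG was near that of all windows. Counted by gene, 9 of the 10 had a match in at least 1 window. No share by gene was taken over all genes, so that count has no background. A match is a run of letters, not a measured binding site, and 2 of the windows of Aldoa overlap. Of the members, only the windows of Gpi1 held no match.

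Slc2a1 encodes GLUT1, the widespread basal glucose transporter. It lies on chromosome 4 (119108711 to 119137983, plus strand, GRCm38). Its level was 240.4, 80.5 and 146 CPM (counts divided by TMM-scaled library size, a scaling that sets the bulk of genes level) in muscle replicates 1 to 3. In epithelium replicates 1 to 3 it was 406, 247 and 321 CPM. All 3 muscle libraries lay below all 3 epithelial libraries, by a narrow margin between muscle replicate 1 and epithelium replicate 2. It was the single gene of the set without overlap, against 10.5% of all tested genes with muscle wholly below epithelium. The log2 fold change of muscle over epithelium was -1.06 ± 0.39 (SE; 95% interval -1.95 to -0.17), and the adjusted p was 0.14 (edgeR). Within the later date the log2 difference was -0.99 (edgeR adjusted p = 0.060), and at the earlier date, with 1 library of each, epithelium was 3.07-fold the level in muscle. With the date as a term in the fit, Slc2a1 passed (edgeR adjusted p = 0.024).

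**Figure D1:**
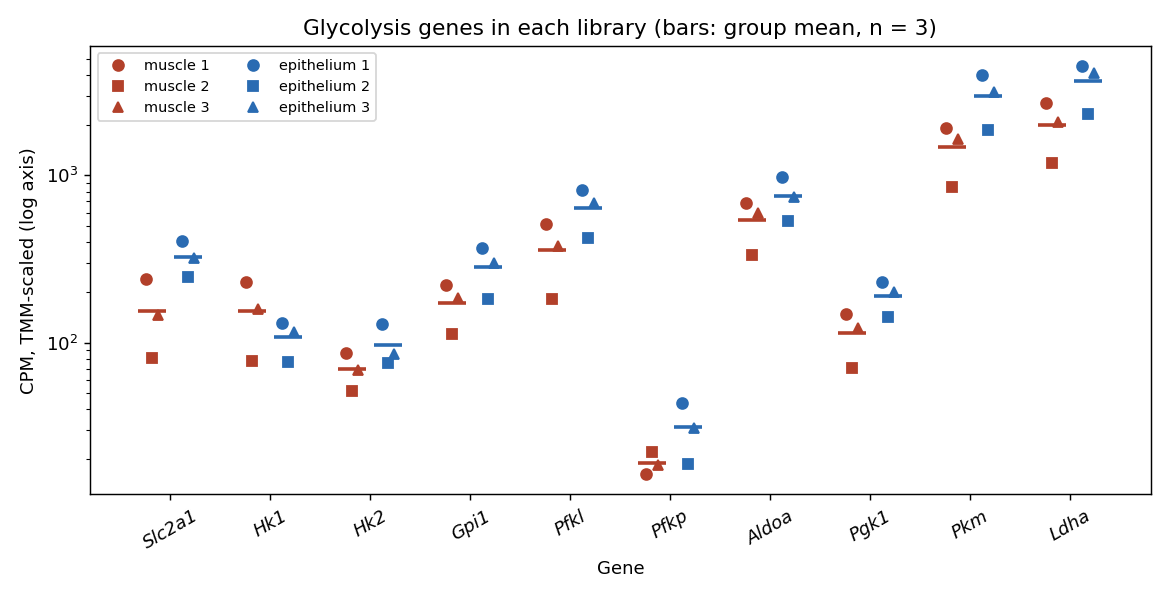
Level of each of the 10 genes in each library, in CPM on a log axis; points are libraries (circle, square and triangle for replicates 1, 2 and 3) and bars are means of 3. The square, replicate 2, is the lowest library of its group for every gene except Pfkp in muscle, and the Slc2a1 groups are the only ones that do not overlap.

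The hexokinases phosphorylate glucose and so hold it in the cell. Hk1, on chromosome 10 (62268855 to 62379908, minus strand), encodes the widespread isozyme, and Hk2, on chromosome 6 (82725025 to 82774454, minus strand), an isozyme induced in growing and insulin-responsive tissues. Hk1 had 229, 77.7 and 158 CPM in the muscle libraries and 132, 77.0 and 116 in the epithelial ones. Muscle replicates 1 and 3 were above every epithelial library, while both libraries numbered 2 had nearly the same level. The log2 fold change of Hk1 was 0.52 ± 0.39 (95% interval -0.37 to 1.40, edgeR adjusted p = 0.60). Hk1 passed the threshold in none of 16 alternative fits. Hk2 had 87.2, 51.7 and 68.9 CPM in muscle against 130.1, 75.3 and 85.5 in epithelium, with overlap between muscle replicate 1 and epithelium replicates 2 and 3. Its log2 fold change was -0.49 ± 0.30 (edgeR adjusted p = 0.45).

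The ratio of Hk2 to Hk1 within a library does not depend on how libraries are scaled. As log2 of counts it was -1.39, -0.59 and -1.20 in muscle and -0.02, -0.03 and -0.44 in epithelium. No muscle library reached the lowest epithelial one, so the balance lay further toward Hk1 in each muscle library. The difference of means was -0.90, with a two-sided exact permutation p of 0.10, the smallest that 3 against 3 libraries allow (0.15 adjusted over 3 ratios). It was -1.07 within the later date and -0.56 at the earlier one. The gene Hk1os, on the opposite strand, overlaps exons of Hk1 and is in the table. The library kit keeps no strand in standard use, so reads of these genes may not be told apart.

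Gpi1 converts glucose 6-phosphate to fructose 6-phosphate (chromosome 7, 34201330 to 34230336, minus strand). It had 173 ± 55.7 CPM (SD, n = 3) in muscle against 284 ± 93.6 in epithelium. The log2 fold change was -0.71 ± 0.34 (edgeR adjusted p = 0.28), and within the later date it passed at -0.79 (adjusted p = 0.033). Phosphofructokinase, the main control point of glycolysis, is encoded by Pfkl (chromosome 10, 77986947 to 78010083, minus strand), Pfkp (chromosome 13, 6579768 to 6648777, minus strand) and Pfkm, which is not in the set. Pfkl, the liver-type gene, had 516, 183 and 378 CPM in muscle against 813, 419.5 and 684 in epithelium. Only muscle replicate 1 rose above the lowest epithelial library. The log2 fold change of Pfkl was -0.83 ± 0.40 (edgeR adjusted p = 0.29), and -0.82 within the later date (adjusted p = 0.041).

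Pfkp, the platelet-type gene, was the least abundant of the set and did not follow the rest. It had 16.4, 22.2 and 18.5 CPM in muscle against 43.3, 18.9 and 31.0 in epithelium. Muscle replicate 2 was the highest muscle library for Pfkp and the lowest for every other gene of the set. Epithelium exceeded muscle 2.24-fold within the later date (edgeR adjusted p = 0.035), whereas at the earlier date epithelium had 0.853 of the level in muscle. Over all 6 libraries the log2 fold change was -0.71 ± 0.32 (edgeR adjusted p = 0.25). The log2 ratio of Pfkp to Pfkl spanned -4.97 to -3.04 in muscle and -4.47 to -4.23 in epithelium. Its groups overlapped (difference 0.26, exact permutation p = 0.80), and without muscle replicate 2 the difference was -0.28. Exons of Pitrm1, also in the table, overlap Pfkp on the opposite strand.

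Aldoa splits fructose bisphosphate into 3-carbon sugars (chromosome 7, 126795234 to 126800751, minus strand). It had 539 ± 183 CPM (SD, n = 3) in muscle against 752 ± 223 in epithelium (log2 fold change -0.48 ± 0.34, edgeR adjusted p = 0.56). Reads of Aldoa may be shared with intronless copies: Aldoart1 and Aldoart2, rows of their own in the table, matched its transcript at 93.1% and 89.0% identity over 1305 and 1341 bases. Their counts together came to 75.4% to 108% of those of Aldoa. Summed with them, the log2 fold change was -0.55 and did not pass (edgeR adjusted p = 0.48). That sum was chosen after the data were seen. Pgk1 makes the first ATP of the pathway (chromosome X, 106187100 to 106203699, plus strand). It had 114 ± 39.9 CPM in muscle against 191 ± 45.6 in epithelium, which gave -0.75 ± 0.33 as log2 fold change (edgeR adjusted p = 0.22) and, within the later date, of -0.75 (adjusted p = 0.035).

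Pkm makes pyruvate and the second ATP (chromosome 9, 59656368 to 59679375, plus strand). Gene counts do not separate its M1 and M2 splice forms. Pkm had 1920.3, 852 and 1656 CPM in muscle against 3989.6, 1869.6 and 3142 in epithelium. The highest muscle library exceeded the lowest epithelial one slightly. The log2 fold change was -1.02 ± 0.38 (95% interval -1.89 to -0.15, edgeR adjusted p = 0.15). Epithelium was 2.20-fold the level in muscle at the earlier date and 2.10-fold at the later (edgeR adjusted p = 0.011 within the later date).

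Ldha encodes the lactate dehydrogenase subunit that favours the reduction of pyruvate to lactate (chromosome 7, 46841475 to 46855627, plus strand). It had 2696, 1192 and 2087 CPM in muscle against 4492, 2342 and 4113 in epithelium. Muscle replicate 1 lay above epithelium replicate 2, and the other libraries kept apart. The log2 fold change was -0.87 ± 0.37 (95% interval -1.71 to -0.04, edgeR adjusted p = 0.21), with epithelium 1.97-fold the level in muscle at the earlier date and 1.90-fold at the later (adjusted p = 0.017). Ldhb, outside the set, encodes the partner subunit. It had 196, 169.8 and 205 CPM in muscle against 186, 81.1 and 131 in epithelium (log2 fold change 0.52 ± 0.31, edgeR adjusted p = 0.44). The log2 ratio of Ldha to Ldhb was 3.78, 2.81 and 3.35 in muscle against 4.59, 4.85 and 4.97 in epithelium. No library crossed over: the balance lay further toward Ldha in each epithelial library, by a mean of 1.49 on the log2 scale, coded as -1.49 for muscle minus epithelium (exact permutation p = 0.10, the smallest possible, 0.15 adjusted over 3 ratios). The difference was -1.22 within the later date and -2.04 at the earlier.

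**Figure D2:**
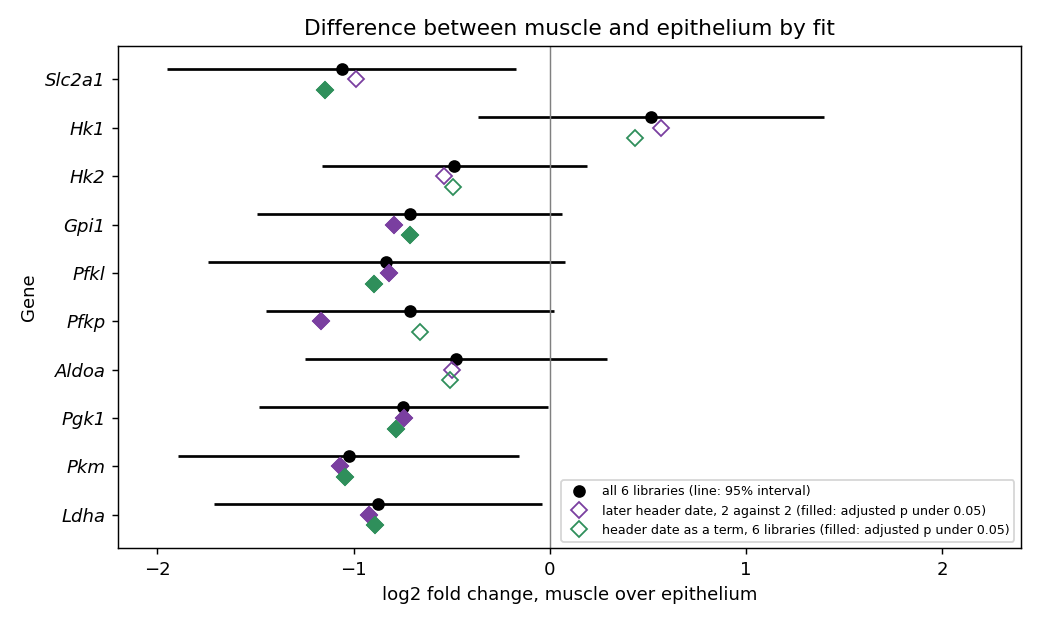
Log2 fold change of muscle over epithelium for each gene with all 6 libraries (black, with the 95% interval), within the later date (purple) and with the date as a term (green); filled diamonds passed an adjusted p of 0.05. The values of the 3 fits lie close together for 9 of the genes, Pfkp being the exception, and Hk1 alone lies to the right of 0.

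Read as a set, the genes had a median log2 fold change of -0.73, against -0.10 over all tested genes. The fitted value was below 0 for 9 of the 10, and for 54.5% of all tested genes. At an unadjusted p under 0.05, 4 genes passed, all lower in muscle (Slc2a1, Pgk1, Pkm and Ldha), where 8.18% of tested genes did so in that direction. None passed with limma-voom (4.62% of tested genes did as higher in epithelium), and 6 passed with DESeq2, where 11.1% of genes with an adjusted p passed as higher in epithelium. Within the later date 6 passed as higher in epithelium, against a background of 6.93%. With the date as a term 6 passed, against 5.80%, with Slc2a1 in place of Pfkp. Leaving out epithelium replicate 2 let Pkm (edgeR adjusted p = 0.035) and Ldha (0.048) pass, where 4.40% of tested genes passed as higher in epithelium. Leaving out muscle replicate 1, 2 or 3 or epithelium replicate 1 or 3 let none pass, against 2.50%, 4.58%, 3.44%, 2.70% and 2.96%. With libraries scaled by size only 8 passed, against 7.43%, and the share of all calls that were higher in muscle was 42.0% in place of 61.5%. Taken date by date, 8 of 10 genes had both later muscle libraries below both epithelial ones (23.0% of tested genes), and 8 of 10 were lower in muscle at the earlier date (53.1%). The sign of all 10 genes was the same in every alternative fit. Fewer cells of a kind and less RNA per cell cannot be told apart in such bulk libraries.

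Within their groups, the libraries numbered 2 stood low for the set. Summed over the 10 genes, the level was 6759, 2975 and 5418 CPM in the 3 muscle libraries, against 11588, 5909.6 and 9729.8 for epithelium. The same libraries, both of the earlier date, carried the most counts of olfactory and vomeronasal receptors, known from sensory neurons: 883 and 1817 CPM of the unscaled library, against 7.26 to 37.8 in muscle replicates 1 and 3 and epithelium replicate 1. Epithelium replicate 3, of the later date, had 636. With these receptor counts as a covariate 6 genes passed as higher in epithelium, where 6.31% of tested genes did. With only the 3 libraries of fewest receptor counts (muscle replicates 1 and 3 against epithelium replicate 1) 7 passed, against 7.02%. That fit assumes that the lone epithelial library varies like the muscle libraries. The part of these counts in the difference was not tested further. Total counts ran from 11847432 to 54848820.

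As a share of the counts of the 10 genes in a library, Ldha took 38.5% to 40.1% in muscle and 38.8% to 42.3% in epithelium, and Pfkl 6.15% to 7.63% and 7.02% to 7.10%. Hk1 stood apart with 3.39%, 2.61% and 2.92% in muscle and 1.14%, 1.30% and 1.19% in epithelium. The lowest muscle share of Hk1 thus lay above the highest epithelial share with a wide gap. Aldoa also held a larger share in each muscle library (10.1% to 11.2%) than in any epithelial one (7.58% to 9.06%). Pkm held the smaller share in each muscle library, at 28.4% to 30.6% against 31.6% to 34.4%. The shares of Gpi1 lay close but apart, at 3.29% to 3.78% in muscle against 3.07% to 3.18%. Pfkp had the widest spread within muscle relative to its size, at 0.242%, 0.745% and 0.341%, against 0.318% to 0.374% in epithelium. Shares sum to a constant within a library and are given as a description.

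**Figure D3:**
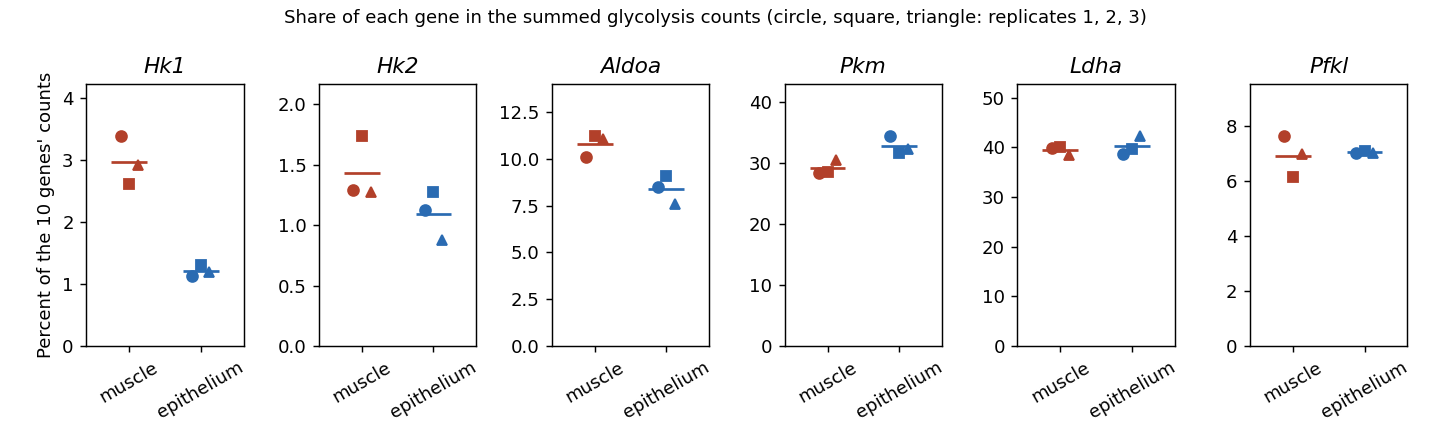
Share of 6 of the genes in the summed counts of all 10, in percent, for each library; bars are means of 3. The Hk1, Aldoa and Pkm groups do not overlap, with Hk1 at 2.61% to 3.39% in muscle and 1.14% to 1.30% in epithelium, while the Ldha and Pfkl groups overlap.

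Divided by the length of a principal GENCODE transcript, to allow genes to be compared, Ldha was the most abundant of the set in both populations. Its level was 1128 ± 428 CPM per kilobase (SD, n = 3) in muscle and 2066 ± 650 in epithelium. Pkm followed at 607 ± 229 and 1234 ± 439, then Aldoa at 357 ± 121 and 498 ± 148, and Pfkl at 96.2 ± 44.8 and 171 ± 53.8. The ranges over libraries of each of these neighbours overlapped in 1 or both populations, except those of Aldoa and Pfkl. Within each of the 6 libraries, however, these genes kept this order. Pgk1, Gpi1 and Slc2a1 were close together, at 62.5, 59.9 and 47.7 CPM per kilobase in muscle and 105, 98.3 and 99.5 in epithelium. Their ranges over libraries overlapped, though Slc2a1 lay below Pgk1 in each library. Hk1 came next at 40.2 ± 19.7 and 28.1 ± 7.33, ahead of Hk2 at 12.6 ± 3.22 and 17.6 ± 5.29. Pfkp was lowest at 4.59 ± 0.71 and 7.50 ± 2.94. The level of Aldoa leaves out Aldoart1 and Aldoart2, whose counts came to 75.4% to 108% of those of Aldoa. Its place below Pkm may thus depend on how shared reads were counted.

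Of 25 other genes of glycolytic enzymes and transporters, all of them tested, muscle had the higher level of 3 and epithelium of 2, where 6.58% and 4.11% of all tested genes were. The remaining 20 did not pass. Of 23 tested within the later date, 2 passed toward muscle and 5 toward epithelium, against 10.7% and 6.93%. Over all 6 libraries the median log2 fold change was -0.59. The 5 genes that passed encode isozymes known from particular tissues. Slc2a4 encodes GLUT4, the insulin-responsive glucose transporter of muscle and fat. It had 140.3, 33.0 and 118 CPM in muscle against 16.1, 17.0 and 10.6 in epithelium, without overlap (log2 fold change 2.74 ± 0.50, edgeR adjusted p = 0.0085), and it passed in all 6 fits that left out a library. Pfkm, the muscle-type phosphofructokinase gene, had 87.1, 47.9 and 82.0 CPM in muscle against 40.4, 29.8 and 30.5 in epithelium (1.11 ± 0.29, adjusted p = 0.040). Its call was lost without muscle replicate 1 or 3 or epithelium replicate 2 or 3, at an adjusted p of up to 0.20. Pgam2, the muscle-type phosphoglycerate mutase gene, had 11.7 ± 7.06 CPM in muscle against 1.50 ± 0.26 in epithelium (2.95 ± 0.66, adjusted p = 0.022) and lost its call without muscle replicate 1 or epithelium replicate 3, at up to 0.28. Within the later date it did not pass (0.058).

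Eno3, the muscle-type enolase gene of the same list, named after its values were seen, had 27.5 ± 13.8 CPM in muscle against 22.6 ± 12.6 in epithelium (0.28 ± 0.49, edgeR adjusted p = 0.91) and passed in none of 16 alternative fits. Slc2a4, Pfkm and Pgam2 are also genes of skeletal muscle. Of 10 skeletal muscle markers, 4 were higher in muscle, against 6.58% of all tested genes. Their summed level was 364 to 1567 CPM in muscle and 10.1 to 54.5 in epithelium. Some of them, such as Acta1 and Actc1, are known from early smooth muscle too. Of the same markers, Myog, Myod1 and Ckm were named outside the rule for named genes. Myog, which marks differentiating skeletal myoblasts, had 245, 1.20 and 17.3 CPM in the muscle libraries and did not pass (edgeR adjusted p = 0.093). Myod1 had 62.1, 0.50 and 3.82 CPM in the muscle libraries and did not pass either (edgeR adjusted p = 0.15). Slc2a4 and Pfkm ran in the same order over these libraries, highest in replicate 1 and lowest in replicate 2. So did every gene of the set except Pfkp, so this order was not particular to them. Pgam2 did not, at 19.1, 10.9 and 5.03 CPM in muscle replicates 1 to 3. Ckm, the creatine kinase gene of mature skeletal muscle, had at most 1.50 CPM in any library. The part of such cells in these differences was not tested. In muscle replicate 2 the 11 smooth muscle markers summed to 4448 CPM, against 18228 and 19671 in the other muscle libraries. Slc2a4 and Pfkm were also lowest there, and Pgam2 was not.

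Hkdc1, which encodes a hexokinase-like enzyme, had 0.228, 3.64 and 0.152 CPM in muscle against 86.2, 38.4 and 62.5 in epithelium, a gap of -5.63 ± 1.08 in log2 fold change (edgeR adjusted p = 0.011), and the call was lost without muscle replicate 1 or epithelium replicate 1 or 3, at up to 0.060. Muscle replicate 2, with the most receptor counts of the muscle libraries, had the highest level of Hkdc1 among them. Aldoc, the aldolase gene best known from brain, had 8.61 ± 4.51 and 25.9 ± 8.62 CPM (-1.59 ± 0.44, edgeR adjusted p = 0.0498). It passed without muscle replicate 1 or epithelium replicate 2 and not without any other library (up to 0.15), nor within the later date (0.058).

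The widespread enzymes outside the set leaned as the set did and did not pass. Tpi1, triose phosphate isomerase, had a log2 fold change of -0.57 ± 0.32 (edgeR adjusted p = 0.40), Gapdh -0.74 ± 0.35 (0.28) and the enolase gene Eno1 -0.89 ± 0.34 (0.16). Within the later date each of these passed, at adjusted p of 0.034, 0.017 and 0.0067, and Eno1 also passed without epithelium replicate 2 (0.024). Pgam1, the widespread mutase gene, had 373 ± 131 CPM in muscle against 448 ± 164 in epithelium (-0.27 ± 0.37, adjusted p = 0.87). Of the transporters, the neuronal-type glucose transporter gene Slc2a3 had 0.45 ± 0.32 (edgeR adjusted p = 0.56). The lactate transporter genes Slc16a1 and Slc16a3 had -0.15 ± 0.36 (0.93) and -0.98 ± 0.50 (0.32).

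**Figure D4:**
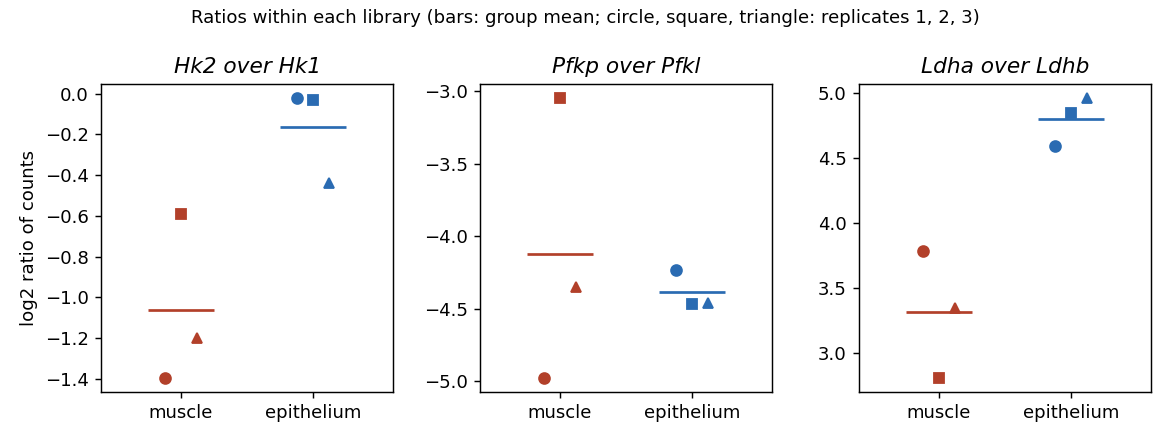
Log2 ratio of the counts of 2 isozyme or subunit genes within each library; points are libraries and bars means of 3. The ratios of Hk2 to Hk1 and of Ldha to Ldhb are lower in every muscle library than in any epithelial one, and the ratio of Pfkp to Pfkl overlaps.

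Among 19 tested regulators of glycolysis, 3 were higher in muscle and 1 in epithelium, against 6.58% and 4.11% of all tested genes. The later date alone gave 3 each way, against 10.7% and 6.93%. Among them were the 2 Myc genes, transcription factors known to drive glycolytic genes. Myc had 152, 140.0 and 157 CPM in muscle against 47.8, 37.8 and 25.5 in epithelium (log2 fold change 2.01 ± 0.28, edgeR adjusted p = 0.0023). Mycn had 15.8, 12.5 and 9.93 CPM in muscle against 337, 98.8 and 201 in epithelium (-4.06 ± 0.47, adjusted p = 0.0010). The pair thus differed in opposite directions, and both genes passed in all 16 alternative fits. Txnip, an inhibitor of glucose uptake, was higher in muscle in all 16 fits as well (1.89 ± 0.30, edgeR adjusted p = 0.0041). Egln3, a prolyl hydroxylase that marks HIF for breakdown, had 91.6 ± 54.4 CPM in muscle against 17.5 ± 6.96 in epithelium (2.39 ± 0.53, adjusted p = 0.021). It lost its call without muscle replicate 1 or 3 or epithelium replicate 2 or 3, at up to 0.10. Hif1a itself (0.46 ± 0.30, adjusted p = 0.51) and Pfkfb3, which makes the activator of phosphofructokinase (-0.49 ± 0.43, 0.69), did not pass.

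Of 18 genes that set the fate of pyruvate, 3 passed toward muscle and none toward epithelium (6.58% and 4.11% of all tested genes). In the later date, 5 passed toward muscle and 1 toward epithelium (10.7% and 6.93%). Mpc1 and Mpc2 encode the carrier that takes pyruvate into mitochondria. Mpc1 had 41.1 ± 6.25 CPM in muscle against 19.5 ± 2.42 in epithelium (log2 fold change 1.08 ± 0.24, edgeR adjusted p = 0.020), and Mpc2 109 ± 22.1 and 58.6 ± 3.92 (0.90 ± 0.24, adjusted p = 0.042). Pdp1, a phosphatase that activates pyruvate dehydrogenase, had 63.0 ± 20.2 and 23.9 ± 2.16 CPM (1.40 ± 0.29, adjusted p = 0.014). Without epithelium replicate 3 Pdp1 lost its call (0.075). Mpc1 lost it without muscle replicate 3 or epithelium replicate 1 or 3 (up to 0.12), and Mpc2 in every fit without a library except that without muscle replicate 2 (up to 0.20). Mpc2 did not pass within the later date (0.066). Pdk1, a kinase that inactivates pyruvate dehydrogenase, had 178, 61.6 and 122 CPM in muscle against 351, 247 and 281 in epithelium. No muscle library reached an epithelial one, yet Pdk1 missed the threshold (log2 fold change -1.28 ± 0.37, edgeR adjusted p = 0.064). It passed within the later date (0.023) and without muscle replicate 1 or epithelium replicate 2 (0.0395 at the lowest).

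Glycogen genes, 18 in all, held 3 that were higher in muscle and none that was higher in epithelium, against 6.58% and 4.11% of all tested genes. In the later date, 6 were higher in muscle, against 10.7%. Stbd1, which tethers glycogen to membranes, had 542, 303 and 480.3 CPM in muscle against 141, 100.5 and 129.6 in epithelium (log2 fold change 1.84 ± 0.29, edgeR adjusted p = 0.0045), and it passed in all 16 alternative fits. Gyg, glycogenin, which primes glycogen synthesis, had 1.47 ± 0.38 (adjusted p = 0.041). Ugp2, which makes its sugar donor, had 1.13 ± 0.28 (adjusted p = 0.034). Gyg lost its call in every fit without a library except that without muscle replicate 2 (up to 0.14). Ugp2 lost its call without muscle replicate 1 or 3 or epithelium replicate 1 or 3 (up to 0.15).

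**Figure D5:**
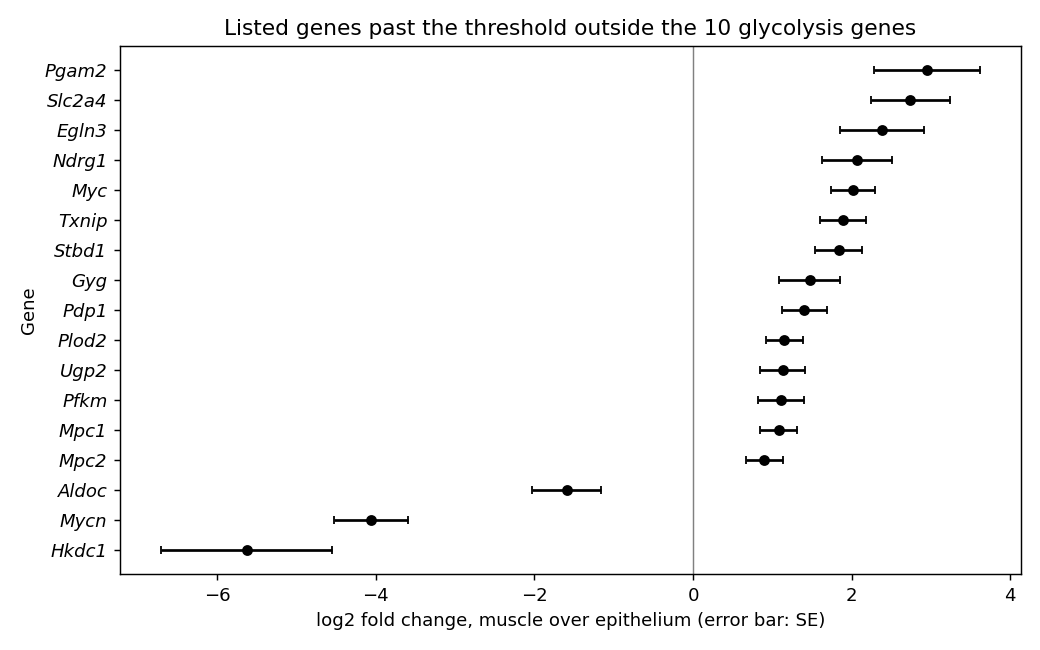
Log2 fold change of muscle over epithelium with SE for the 17 listed genes outside the set that passed an adjusted p of 0.05. From Mpc2 to Pgam2, 14 genes lie toward muscle, and Aldoc, Mycn and Hkdc1 lie toward epithelium.

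Of 17 hypoxia response genes outside glycolysis, 2 were higher in muscle, Ndrg1 (2.07 ± 0.44, edgeR adjusted p = 0.017) and Plod2 (1.15 ± 0.23, adjusted p = 0.013), and none was higher in epithelium, against 6.58% and 4.11% of all tested genes. The later date alone gave 4 that were higher in muscle, against 10.7%. Plod2, a collagen lysyl hydroxylase gene, had 133, 131 and 127 CPM in muscle against 68.8, 59.6 and 47.7 in epithelium. Both lost their call without muscle replicate 1 or epithelium replicate 3, at up to 0.083 for Ndrg1 and 0.11 for Plod2. The median log2 fold change of this list was 0.29, and 7 of the 17 were fitted below 0. Of these, named after their values were seen, Vegfa, a growth factor for blood vessels, had -1.07 ± 0.43 (edgeR adjusted p = 0.18, 0.035 with DESeq2), Bnip3 -0.63 ± 0.44 (0.55) and Kdm3a -0.54 ± 0.40 (0.60). None of 6 gluconeogenesis genes, 9 pentose phosphate genes or 4 regulators of Pkm splicing passed in the filtered, TMM-scaled edgeR fit without covariates. At an unadjusted p under 0.05 in that fit, 1, 0 and 0 did. That gene, Pck2, named after its values were seen, makes phosphoenolpyruvate in mitochondria. It had 116, 72.6 and 92.8 CPM in muscle against 56.4, 39.8 and 51.2 in epithelium (0.93 ± 0.26, edgeR adjusted p = 0.054), without overlap, and it passed within the later date (0.028) and with the date as a term (0.0085).

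The sort and the other cells it could hold were checked by fixed marker lists. Actg2 had 1876 ± 1287 CPM (SD, n = 3) in muscle against 2.17 ± 0.50 in epithelium, Acta2 5222 ± 2902 and 7.50 ± 7.63, and Epcam 1.53 ± 0.80 and 598 ± 96.9. All 11 smooth muscle markers were higher in muscle and all 11 epithelial markers in epithelium. Of the cell division list, 0 of 10 genes passed, with summed levels of 1752 to 2204 CPM in muscle and 1561 to 3025 in epithelium. Of 10 genes of the response to dissociation 2 were higher in epithelium, against 4.11% of all tested genes. The list of 10 summed to 8589 to 23733 CPM for muscle and 24255 to 31196 for epithelium. The summed level of the glycolysis set was also higher in epithelium, but libraries within a group were ordered differently. Epithelium replicate 1 had the lowest dissociation sum of its group and the highest level of the set. Among muscle libraries, replicate 3 was highest for dissociation and replicate 1 for the set, while replicate 2 was lowest for both. The part of this response in the difference was not tested. Erythroid markers summed to at most 43.4 CPM in any library, with 4 of 9 at 0 in all, endothelial ones to 78.0, immune ones to 49.6, neural and glial ones to 77.3 and mesothelial ones to 17.7. Cartilage markers summed to 785 to 1361 CPM in muscle and 244 to 535 in epithelium. Of these 8 genes 3 were higher in muscle, against 6.58% of all tested genes.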

How the data were processed

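RNA was measured in 6 libraries. Per the labels' protocols, SMART-Seq v4 gave the cDNA and Nextera XT the libraries. The values are whole-number counts per gene symbol as deposited. The submitters' processing notes name Trim Galore, Bowtie2, Cufflinks, DESeq and the build mm10, with no role. The counting program, annotation and handling of shared reads are not given in the sources used here. Of counts from 1 to 19, 73.8% to 79.6% per library were even, so a count may be less than 1 read pair. Intervals cover only the fitted spread.

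Groups came from titles. In R 4.3.3, filterByExpr removed low genes, TMM scaled the libraries, and edgeR 4.0.16 gave a two-sided robust quasi-likelihood test without covariates over all 19375 tested genes, at an adjusted p under 0.05. Alternatives used DESeq2 1.42.0, limma-voom 3.58.1, other scaling, no filter, an adjusted p under 0.01, header dates, receptor counts, a replicate block and each library left out. Header identifiers were taken for dates, a reading no header spells out: both libraries numbered 2 carry the earlier and the other 4 the later. Correlations of deviations between libraries of the same number were 0.59, 0.73 and -0.57 over 19375 genes, so the numbers were not taken to pair libraries. Isozyme ratios added 0.5 counts and were compared by exact permutation tests. Copies were sought with blastn (at least 85% identity over 300 bases and 50% of the copy). Positions are from GENCODE vM21 and promoter windows from RefSeq GRCm38.p6, matched by symbol for 10 of 10 genes.

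The members, lists and tests were chosen with earlier results of these data known. A single gene of a pathway list is not reported here and was left out of its counts. Named genes were the members, 13 fixed genes and, per pathway list, up to 5 passing genes either way with mean log2 CPM of 2 or more.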

Additional observations from a re-analysis of the deposited data

How the results depend on the processing

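The direction of all 10 genes was the same in each of the 16 alternative fits and with copies summed. The number of genes higher in epithelium at an adjusted p under 0.05 was 0 with all libraries in the TMM-scaled edgeR fit without covariates. It was 6 with the replicate block (4.21% of tested genes passed as higher in epithelium there), 6 with the header date as a term, 6 within the later date, 6 with the receptor count covariate, 6 with DESeq2, 7 with the libraries of fewest receptor counts and 8 with library size only. Over the fits without a library it ranged from 0 to 2, the 2 without epithelium replicate 2. Of 180 values for single genes, 133 kept their side of the threshold and 47 newly passed. The 133 include the values at an adjusted p under 0.01, which could not change because none passed at 0.05. They also include the fit with copies summed. Library size only moved the median log2 fold change of all genes from -0.10 to -0.33. The number of all genes that passed was 2071, and it was 3178 with the date as a term, 3549 with DESeq2, 983 at an adjusted p under 0.01, and from 1169 to 2573 without a library (1169 without epithelium replicate 3, 1323 without muscle replicate 1).

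The replicate block, whose pairing the correlations did not bear out, left the ratio differences at -0.90, 0.26 and -1.49 for Hk2 to Hk1, Pfkp to Pfkl and Ldha to Ldhb (exact sign-flip test, smallest p 0.25). Under it Slc2a4 lost its call (edgeR adjusted p = 0.054). Without a library the ratio differences ranged from -1.13 to -0.73, from -0.28 to 0.69 and from -1.73 to -1.24, and only the Pfkp ratio changed sign (-0.28 without muscle replicate 2). The causes of these changes were not tested. Low counts limit Pgam2 and, in muscle, Hkdc1, and 3 libraries a group limit every interval.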

Other observations

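Gapdh, often used as a reference gene, had 126.8 ± 38.6 CPM per kilobase (SD, n = 3) in muscle and 211 ± 76.4 in epithelium, below Tpi1, the gene of the step before it, at 510 ± 151 and 756 ± 208. A row named Gm12070 matched the Gapdh transcript at 99.9% identity over 1002 bases and held 94.6% to 118% as many counts as the Gapdh row in each library. How reads shared by both were counted is not given in the sources used here.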
